A study of Mus musculus with 6 samples.

Results

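Cholesterol and fatty acid metabolism was examined through 37 genes, chosen for their place in these pathways with earlier results of these data known. They hold 15 enzymes of cholesterol synthesis, 4 regulators of sterol synthesis, 3 enzymes of fatty acid synthesis, 5 fatty acid desaturases, 5 elongases and 5 genes of fatty acid oxidation and turnover. Of the 37, 35 had a probe of that name among the 19057 named genes of the array, by 62 of its 45281 probes, and 29 had a probe that was detected on enough arrays to be tested. Hmgcs1 and Fdft1 were not analysed here, having no probe of that name. Sc4mol is given under its current symbol, Msmo1. RNA of mouse embryos at E10.5 was hybridised to 6 Illumina bead arrays, with 3 arrays per genotype: WT and the double conditional knockout (DCKO, written CBP/p300-/- in the sample records). By the study's methods, the embryos of both genotypes carried floxed alleles of CBP and p300, which encode related lysine acetyltransferases, and the DCKO embryos also carried the Pax6-Cre transgene. That transgene uses an enhancer and promoter active in the precursors of lens and cornea in the head ectoderm, and by the study's reporter staining it was also active, at a later stage, in some cells outside the lens and cornea. The background is mixed FVB and 129, and the dissected tissue is recorded as lens placode in WT and as surface ectoderm in DCKO. The sources differ on the replicates: the methods describe separate embryos, whereas the records describe RNA pooled from 3 embryos of a genotype and then amplified in triplicate. In the latter case p-values measure technical spread only.

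Cells make cholesterol from acetyl-CoA through mevalonate, farnesyl diphosphate, squalene and lanosterol. The transcription factors encoded by Srebf1 and Srebf2 are carried from the endoplasmic reticulum by the escort protein SCAP when sterols are low, and INSIG proteins hold SCAP back when sterols are plentiful. Fatty acids are built on the same acetyl-CoA, then lengthened by ELOVL elongases, desaturated by SCD and FADS enzymes, and degraded in mitochondria and peroxisomes. Lens cells are rich in membrane, and fiber cell membranes are known for a high cholesterol content.

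Among the 29 tested genes, Cyp4v3 and Elovl3 were lower in DCKO and Acot1 was higher by its brightest probe, while 26 did not pass the test. Cyp4v3, a cytochrome P450 whose human ortholog CYP4V2 hydroxylates fatty acids, fell at least 29.5-fold. Elovl3, an elongase of very long chain fatty acids, fell at least 9.24-fold, and Acot1, a cytosolic acyl-CoA thioesterase, rose at least 8.87-fold. These folds compare means and allow for undetected arrays only, not for the spread between arrays. The 95% CI of the log2 difference was -5.69 to -4.14 for Cyp4v3, -4.79 to -1.77 for Elovl3 and 2.20 to 4.79 for Acot1. None of the 11 tested enzymes of cholesterol synthesis passed the test, although 9 had a higher mean in DCKO. A gene was called at an adjusted p under 0.05 in limma, adjusted over all 19552 tested probes, and was represented by its brightest tested probe, on average over the 6 arrays.

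The 300-base windows around the start sites of 5 of these genes are shown because they belong to 2 of the called genes, to the sterol regulator nearest to the threshold and to the cholesterol enzymes with the smallest p-values for which a window was found. Each runs 5′ to 3′ on the gene's own strand from 250 bases before to 50 bases after the start site in RefSeq, build GRCm38.p6. Capitals mark the CCAAT box (CCAAT, or ATTGG on the other strand), the E-box CACGTG and the core of the sterol element (CACNCCAC, or GTGGNGTG on the other strand).
Cyp4v3: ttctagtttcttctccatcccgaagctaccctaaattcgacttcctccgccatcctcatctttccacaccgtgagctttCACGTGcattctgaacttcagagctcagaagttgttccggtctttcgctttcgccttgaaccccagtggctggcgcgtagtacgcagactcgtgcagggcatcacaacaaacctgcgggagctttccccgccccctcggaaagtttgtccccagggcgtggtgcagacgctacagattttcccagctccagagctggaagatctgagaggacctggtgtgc
Acot1: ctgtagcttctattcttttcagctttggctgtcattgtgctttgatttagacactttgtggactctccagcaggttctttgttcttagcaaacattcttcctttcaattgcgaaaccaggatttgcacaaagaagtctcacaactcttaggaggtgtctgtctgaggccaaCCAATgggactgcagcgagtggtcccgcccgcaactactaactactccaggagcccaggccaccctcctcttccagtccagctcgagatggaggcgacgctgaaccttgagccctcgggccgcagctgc
Insig1: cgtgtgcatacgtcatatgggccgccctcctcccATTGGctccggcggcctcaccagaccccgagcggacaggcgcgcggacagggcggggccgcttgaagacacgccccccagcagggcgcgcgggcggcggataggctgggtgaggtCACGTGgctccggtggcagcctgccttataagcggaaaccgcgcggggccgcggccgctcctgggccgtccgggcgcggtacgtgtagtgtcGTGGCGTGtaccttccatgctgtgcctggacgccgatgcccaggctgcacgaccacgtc
Msmo1: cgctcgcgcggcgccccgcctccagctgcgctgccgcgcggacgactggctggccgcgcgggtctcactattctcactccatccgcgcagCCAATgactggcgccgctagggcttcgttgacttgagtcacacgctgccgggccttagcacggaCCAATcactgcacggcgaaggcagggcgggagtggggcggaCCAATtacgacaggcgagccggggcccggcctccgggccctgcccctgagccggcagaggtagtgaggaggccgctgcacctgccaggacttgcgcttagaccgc
Lss: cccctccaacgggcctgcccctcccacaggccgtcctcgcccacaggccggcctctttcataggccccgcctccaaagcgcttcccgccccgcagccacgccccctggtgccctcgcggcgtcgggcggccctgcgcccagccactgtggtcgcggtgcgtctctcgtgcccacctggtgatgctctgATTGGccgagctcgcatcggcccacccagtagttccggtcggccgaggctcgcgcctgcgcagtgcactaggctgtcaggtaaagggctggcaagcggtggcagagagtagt
The Cyp4v3 window lies at chr8:45333114-45333413 on the minus strand and holds an E-box that begins 171 bases before the start site. The Acot1 window lies at chr12:84009252-84009551 on the plus strand, with a CCAAT box 79 bases before the start. The Insig1 window, chr5:28071162-28071461 on the plus strand, holds an inverted CCAAT box, an E-box and, 9 bases before the start, an inverted core of the sterol element. The Msmo1 window, chr8:64733529-64733828 on the minus strand, holds 3 CCAAT boxes, and the Lss window, chr10:76531355-76531654 on the plus strand, holds an inverted one 62 bases before the start.

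Windows were found for 30 of the 37 genes, with none for Fdps, Fdft1, Sqle, Scd1, Scd2, Fads1 and Elovl3. On either strand, a CCAAT box stood in 22 of the 30 genes (73.3%), against 41.1% of the 27025 genes with a window and 43.6% of those with a tested probe. All 12 cholesterol enzymes with a window held it, against 10 of the other 18 members. The GC box (GGGCGG, either strand) was found in 24 of 30 (80.0%), against 38.2% of all genes and 69.2% of those with a tested probe, and the E-box in 6 of 30 (20.0%), against 8.09% and 11.9%. The sterol element TCACNCCAC was found in 1 window of the 30, that of Hmgcs1 (1.44% of all genes), and its core, which is contained in the longer motif, in those of Elovl7, Hmgcs1 and Insig1 (7.12% of all genes). These are matches of letters, and no binding was measured here.

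The array data as a whole separated by genotype. Between 18081 and 19769 probes were detected per array, and the arrays correlated at 0.930 to 0.934 within WT, 0.878 to 0.883 within DCKO and 0.837 to 0.857 between genotypes. Each value of a member probe averaged 21 to 73 beads, with a standard error over beads of 1.71 to 6.29% of the signal. Of the deleted genes, none of 3 tested Crebbp probes passed the test. Their log2 differences were -0.76 and -0.57, both lower without overlap, and -0.1, with overlap. Of 4 tested Ep300 probes 1 fell, by at least 2.87-fold (adjusted p = 0.0159). Another Ep300 probe, also undetected on every DCKO array, differed by -1.31 (adjusted p = 0.0632). The brightest Ep300 probe (-0.03) and the remaining one (-0.19) overlapped. The files do not place these probes relative to the deleted exons. Markers of several tissues differed between the genotypes. Of 7 tested lens markers, 6 were lower in DCKO, and their summed level was 13900 to 15300 on the WT arrays and 889 to 1120 on the DCKO arrays, with Cryaa, Crybb3 and Foxe3 undetected on every DCKO array. Of 7 macrophage markers, 4 were lower (summed level 2200 to 3070 against 228 to 327). Of 8 surface and epidermal ectoderm markers, 3 were higher (summed level 7680 to 8840 against 8140 to 9330). Cdh1, the brightest of the 8, had a lower mean in DCKO (log2 difference -0.82), and the other 7 had higher means. Erythroid markers ranged from 4060 to 5080 in WT and 2600 to 3020 in DCKO, with 1 of 4 called lower. The 4 periocular mesenchyme and neural crest markers had 1 call in each direction and sums of 4360 to 4790 against 605 to 1060. Pdgfra, by far the brightest in WT, set these sums and was called lower (log2 difference -3.60). Prrx1 (1.45, called higher), Foxc1 (1.47) and Foxd3 (0.06) had higher means in DCKO. No endothelial (3 tested) or optic vesicle (2 tested) marker was called, whereas 1 of 3 neuronal markers, Isl1, was higher (2.63). Neurog2 had a higher mean (2.62, adjusted p = 0.0541), and Elavl3, the brightest of the 3 in WT, a lower one (-0.63). Summed levels in WT and DCKO were 181 to 280 against 437 to 743 for neuronal markers. They were 238 to 347 against 172 to 204 for optic vesicle markers and 169 to 366 against 113 to 146 for endothelial markers. Of 5 endothelial markers, Cdh5, Pecam1 and Tek were undetected on every DCKO array, and none was undetected on every WT array. Tek differed by -2.29 (adjusted p = 0.0611), whereas Kdr (0) and Emcn (0.20) overlapped. Fewer cells of a type and less RNA per cell cannot be told apart in such samples, and the part of these markers in the results below was not tested.

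**Figure D1:**
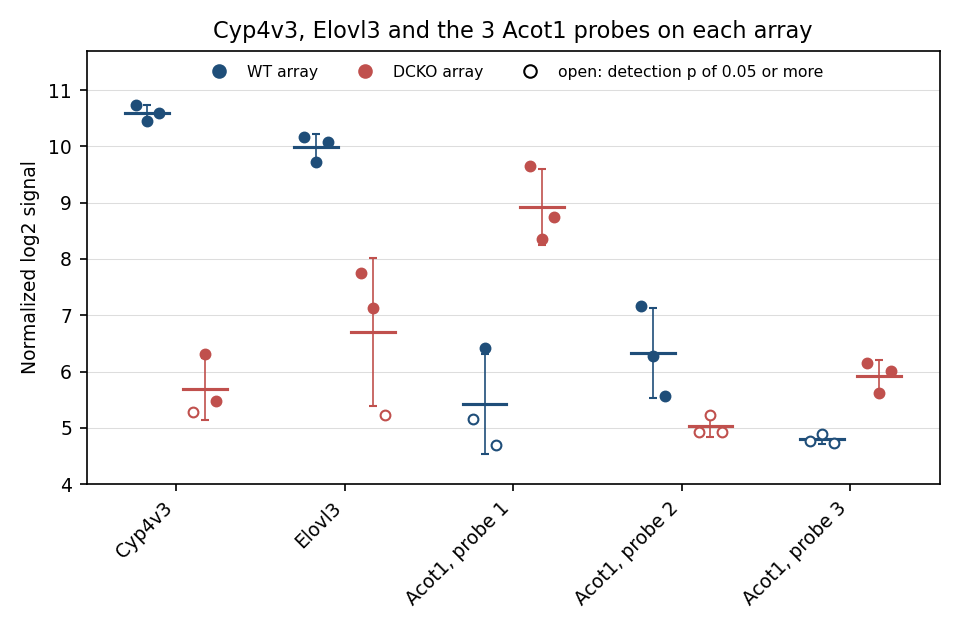
Normalized log2 intensity of the Cyp4v3 and Elovl3 probes and of the 3 tested Acot1 probes on each of the 3 WT and 3 DCKO arrays. Lines are genotype means, bars are 1 SD and open points have a detection p of 0.05 or more. Cyp4v3 and Elovl3 lie lower on every DCKO array, Acot1 probes 1 and 3 lie higher and Acot1 probe 2 lies lower.

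The enzymes of cholesterol synthesis had mostly higher means in DCKO without passing the test. Of 11 tested, 0 were called by limma, against 2.10% of all 10123 tested genes called higher and 2.78% called lower. At an unadjusted p under 0.05, 3 were higher (10.6% of all genes) and 0 were lower (1066 of all 10123 genes). The median log2 difference was 0.60, against 0.01 over all tested genes, and 9 of the 11 (81.8%) were above 0, against 50.9% of all genes. In 6 of the 11 every DCKO array lay above every WT array, as it did in 14.4% of all genes. Adjusted p-values ran from 0.157 to 0.762.

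The early, mevalonate steps were represented by Pmvk, Mvd, Idi1 and Fdps. Pmvk, phosphomevalonate kinase, read 7.57, 6.62 and 7.46 on the WT arrays and 8.04, 7.66 and 8.05 on the DCKO arrays (log2 difference 0.71, SE 0.32, adjusted p = 0.28). Mvd, the decarboxylase that follows, read 6.39, 5.80 and 6.50 in WT and 6.87, 6.70 and 6.58 in DCKO (0.49, SE 0.27, adjusted p = 0.371). Both genes were separated by genotype, but by less than WT array 2 differed from the other WT arrays. Idi1, the isopentenyl diphosphate isomerase, differed by 0.17 (95% CI -0.32 to 0.66), with overlapping genotypes. Fdps, which makes farnesyl diphosphate, read 8.98, 8.98 and 9.52 in WT and 9.78, 9.74 and 9.75 in DCKO (0.60, SE 0.24, adjusted p = 0.232). Its second probe ran the same way, at 5.21, 6.22 and 6.75 in WT and 6.90, 8.64 and 8.76 in DCKO (2.04, SE 0.62, adjusted p = 0.125). For Mvk, mevalonate kinase, no probe was detected on enough arrays to be tested.

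From squalene onward, the values were again mostly higher in DCKO. Sqle, squalene epoxidase, read 9.63, 9.74 and 9.81 in WT and 10.00, 10.40 and 11.16 in DCKO (0.79, SE 0.33, adjusted p = 0.245), with a wider spread in DCKO than in WT. A second Sqle probe read 7.12, 8.02 and 7.75 in WT and 8.64, 8.64 and 8.19 in DCKO, again without overlap (0.86, adjusted p = 0.183). The other tested Sqle probe differed by 0.30 (adjusted p = 0.843). Lss, which closes squalene epoxide to lanosterol, read 8.95, 8.98 and 8.71 in WT and 9.47, 9.40 and 9.57 in DCKO (0.60, SE 0.21, adjusted p = 0.173). Msmo1, the methylsterol monooxygenase, had the smallest adjusted p of the enzymes, 0.157, with 8.42, 8.76 and 8.39 in WT and 9.25, 9.47 and 9.01 in DCKO (0.72, SE 0.24). Fdps, Lss and Msmo1 are the 3 genes with an unadjusted p under 0.05. That count depended on the processing, from 0 without WT array 1 to 5 without between-array normalization. Nsdhl, a dehydrogenase of the same demethylation steps, differed by 0.78 (95% CI -0.30 to 1.85) by its brightest probe, while its probes ranged from -0.87 to 0.78. Ebp, a sterol isomerase, differed by 0.80 (95% CI -0.46 to 2.07).

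The other 2 tested enzymes had lower means in DCKO. Dhcr7, dehydrocholesterol reductase, read 6.96, 6.15 and 7.27 in WT and 6.53, 5.45 and 5.71 in DCKO, and its genotypes overlapped (-0.89, SE 0.41, adjusted p = 0.283). Cyp51, lanosterol demethylase, differed by -0.35 (95% CI -1.57 to 0.88). Sc5d, a sterol desaturase, was detected on 1 array and was not tested. By probes instead of genes, 15 of 18 lay above 0 (50.4% of all tested probes), 5 had an unadjusted p under 0.05 in that direction (9.56% of all) and 0 were called, against 1.77% of all tested probes called higher and 2.81% called lower.

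**Figure D2:**
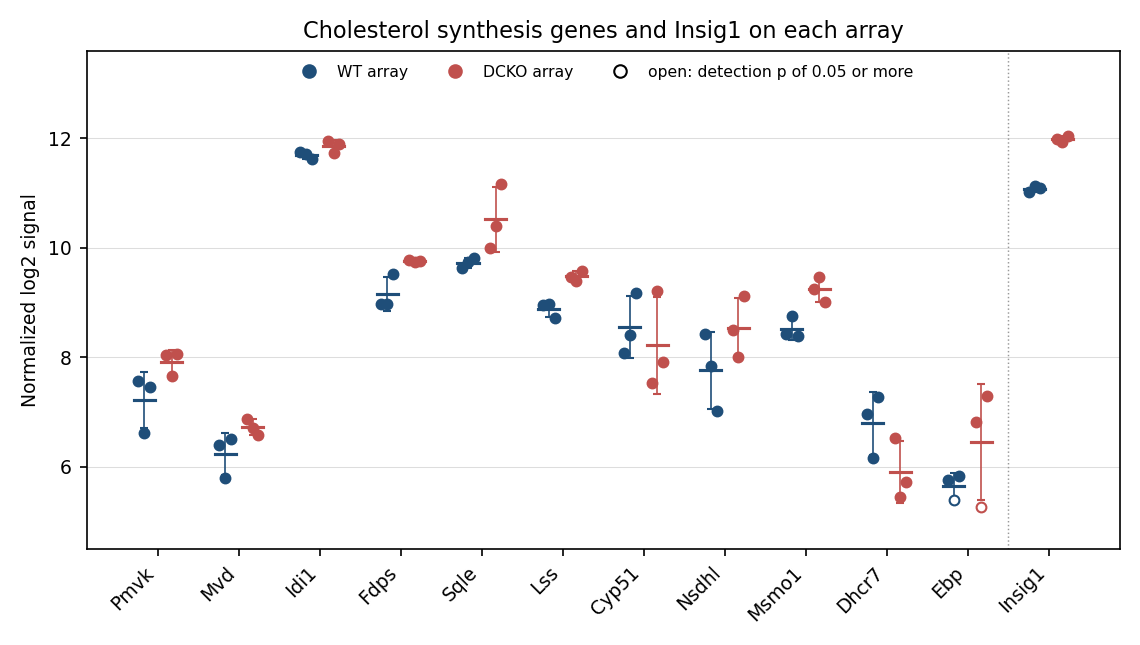
Normalized log2 intensity of the brightest probe of each tested cholesterol synthesis gene and of Insig1, with 1 point per array for WT and DCKO. In Pmvk, Mvd, Fdps, Sqle, Lss, Msmo1 and Insig1 every DCKO point lies above every WT point, whereas Dhcr7 and Cyp51 have lower DCKO means and overlap.

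Of the 4 sterol regulators, 0 were called, against 2.10% of all genes called higher and 2.78% called lower. At an unadjusted p under 0.05, 1 was higher and 0 were lower, against 1076 (10.6%) and 1066 of all 10123 genes. Insig1, whose protein retains SCAP in the endoplasmic reticulum and whose gene is a known SREBP target, came nearest to the threshold. It lies at chr5:28071412-28078662 (Entrez 231070). Its brightest probe read 11.01, 11.13 and 11.10 in WT and 11.99, 11.94 and 12.04 in DCKO, which is 11.08 ± 0.0654 against 11.99 ± 0.0489 (SD, n = 3 each). The genotypes were separated by more than either spread, with a log2 difference of 0.91 (SE 0.20, 95% CI 0.43 to 1.39, adjusted p = 0.0572). Its other 3 tested probes differed by -0.08 (95% CI -0.58 to 0.42, adjusted p = 0.881), -0.23 (95% CI -1.26 to 0.79, adjusted p = 0.816) and 0.52 (adjusted p = 0.689). The probes at -0.08 and -0.23 were detected on every array, and their intervals exclude the value of the brightest probe. The last of the 3 was detected on only 1 WT array, and its wide 95% CI, -0.94 to 1.99, includes that value. The mean of the Insig1 probes differed by 0.28 and did not pass (adjusted p = 0.634).

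Srebf1, whose product drives lipogenic genes, read 9.18, 9.73 and 9.52 in WT and 9.10, 8.72 and 9.06 in DCKO (-0.52, SE 0.25, adjusted p = 0.309). A second Srebf1 probe read 6.88, 6.18 and 6.53 in WT and 5.68, 4.71 and 4.90 in DCKO (-1.43, SE 0.34, adjusted p = 0.0721), and was detected on all WT arrays and 1 DCKO array. Both probes were lower on every DCKO array than on any WT array, and neither passed the test. Srebf2, the sterol-responsive paralog, differed by -0.09 (95% CI -1.36 to 1.17), and Scap by -0.23 (95% CI -0.79 to 0.34).

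Fatty acid synthesis was measured through Acly alone. Acly, which supplies cytosolic acetyl-CoA from citrate, read 11.97, 11.96 and 11.91 in WT and 12.15, 11.89 and 12.07 in DCKO (0.09, 95% CI -0.40 to 0.59), so the genotypes overlapped. Acaca, acetyl-CoA carboxylase, was undetected on every array, and Fasn, fatty acid synthase, was detected on 1 WT array; neither was tested.

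None of the 5 desaturases was called, against 2.10% of all genes called higher and 2.78% called lower, and the median difference was -0.05. At an unadjusted p under 0.05, 1 was higher (10.6% of all genes) and 0 were lower (1066 of 10123). Scd1, which makes monounsaturated fatty acids, read 7.83, 7.78 and 6.97 in WT and 8.78, 8.40 and 8.04 in DCKO (0.88, SE 0.34, adjusted p = 0.206), with no overlap. Fads1, which acts on polyunsaturated fatty acids, read 11.14, 11.20 and 11.13 in WT and 10.83, 11.01 and 10.59 in DCKO. It was lower without overlap, 11.16 ± 0.0368 in WT against 10.81 ± 0.211 in DCKO (SD, n = 3 each), and did not pass (-0.35, adjusted p = 0.434). Scd2, Fads2 and Fads3 overlapped. Their differences were -0.05 (95% CI -0.91 to 0.82), 0.68 (95% CI -0.82 to 2.18) and -0.13 (95% CI -1.0 to 0.73), and a second Fads2 probe gave -0.34.

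The 4 tested elongases of the set had lower means in DCKO, as did 4975 of all 10123 tested genes. The differences of Elovl5 (-0.03) and Elovl1 (-0.49) changed sign under at least 1 alternative. Outside the set, Elovl2 had a higher mean (0.19) and Elovl4 a lower one (-0.39), both with overlapping genotypes. Of the 4, 1 was called lower, Elovl3, against 2.78% of all genes. Elovl3, known from skin glands and brown fat, lies at chr19:46131897-46135694 (Entrez 12686). The bead signal before normalization was 1280, 932 and 1170 on the WT arrays and 424, 289 and 203 on the DCKO arrays, where the last value did not pass the detection threshold against the negative controls. Normalized values were 10.16, 9.73 and 10.07 in WT and 7.75, 7.13 and 5.23 in DCKO. All DCKO arrays lay far below all WT arrays but spread over a wide range, with DCKO array 3 lowest. The log2 difference was -3.28 (SE 0.63, 95% CI -4.79 to -1.77, adjusted p = 0.0417), and without DCKO array 3 it was -2.55 (adjusted p = 0.0209). The call was lost when DCKO array 2 (adjusted p = 0.0759) or WT array 1, 2 or 3 (adjusted p = 0.131, 0.123 and 0.144) was left out, with differences of -3.51 to -3.20. It was also lost with the replicate number as a block (adjusted p = 0.0907).

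The other elongases, which differ in the chain lengths they act on, did not pass the test. Elovl6, the elongase of palmitate, differed by -0.41 (95% CI -1.61 to 0.80), and its second probe read 7.99, 8.71 and 8.02 in WT and 7.45, 6.51 and 7.67 in DCKO (-1.03, SE 0.39, adjusted p = 0.197). Elovl1, which makes very long saturated chains, differed by -0.49 (95% CI -2.19 to 1.22), and Elovl5, an elongase of polyunsaturated fatty acids, by -0.03 (95% CI -0.93 to 0.87). Elovl7 was detected on 1 array and was not tested. Over the 10 tested genes of fatty acid synthesis, desaturation and elongation, the median difference was -0.09 and 3 lay above 0.

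The oxidation and turnover group held the 2 largest differences of the set, in opposite directions. Cyp4v3 lies at chr8:45305801-45333163 (Entrez 102294). Its bead signal was 1840, 1470 and 1630 in WT and 203, 234 and 213 in DCKO, and the probe passed the detection threshold on DCKO arrays 2 and 3 but not on DCKO array 1. After normalization it read 10.74, 10.46 and 10.60 in WT and 5.28, 6.32 and 5.47 in DCKO. Every DCKO array was near background, and the gap was many times the spread within either genotype. The log2 difference was -4.91 (SE 0.32, 95% CI -5.69 to -4.14, adjusted p = 0.00118), and with each array left out in turn it ran from -5.25 to -4.68 and stayed called. Beside it, the summed lens and macrophage markers were also lower in DCKO, as given above, and their part in this result was not tested.

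Acot1, which frees fatty acids from CoA in the cytosol, lies at chr12:84009502-84017670 (Entrez 26897). Its brightest probe gave a bead signal of 201, 251 and 199 in WT and 1140, 457 and 682 in DCKO, and was detected in WT on array 2 only. Normalized values were 5.16, 6.42 and 4.69 in WT and 9.66, 8.35 and 8.75 in DCKO (3.49, SE 0.54, 95% CI 2.20 to 4.79, adjusted p = 0.0217). WT was at or near background and every DCKO array was clearly above it.

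The other 2 tested Acot1 probes did not run together. The first of them read 7.16, 6.27 and 5.57 in WT and 4.92, 5.23 and 4.92 in DCKO, where it was undetected on every array (-1.31, SE 0.42, adjusted p = 0.139). The second read 4.77, 4.89 and 4.73 in WT, undetected on every array, and 6.16, 5.61 and 6.01 in DCKO (1.13, SE 0.24, adjusted p = 0.0513). The mean of the Acot1 probes differed by 1.10 and did not pass (adjusted p = 0.0812), so the call rests on a single probe. Acot1 sits among close paralogs on the same chromosome, whose probes were looked at after these values were seen. All probes of Acot2, Acot3, Acot4 and Acot5 were undetected on every array, and 1 of 2 Acot6 probes was detected on 1 DCKO array. The Acot1 call was lost on leaving out WT array 1 or 3 (adjusted p = 0.0872 and 0.0821) or DCKO array 1 or 3 (0.0526 and 0.0555), with differences of 3.07 to 3.53, and with the replicate block (0.0858).

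The mitochondrial dehydrogenases of the set, which open the beta-oxidation cycle, showed no such differences. Acadm, for medium chains, differed by 0.34 (95% CI -0.50 to 1.18), and Acadl, for long chains, by 0.07 (95% CI -0.74 to 0.89). Among acyl-CoA dehydrogenases outside the set, Acads (1.24, adjusted p = 0.0896) and Acadvl (1.12, adjusted p = 0.17) were higher without overlap but not called. Acadsb (-0.32) overlapped. Cpt1a, which admits long chain fatty acids to mitochondria, had 1 detection on 1 WT array over its probes and was not tested.

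**Figure D3:**
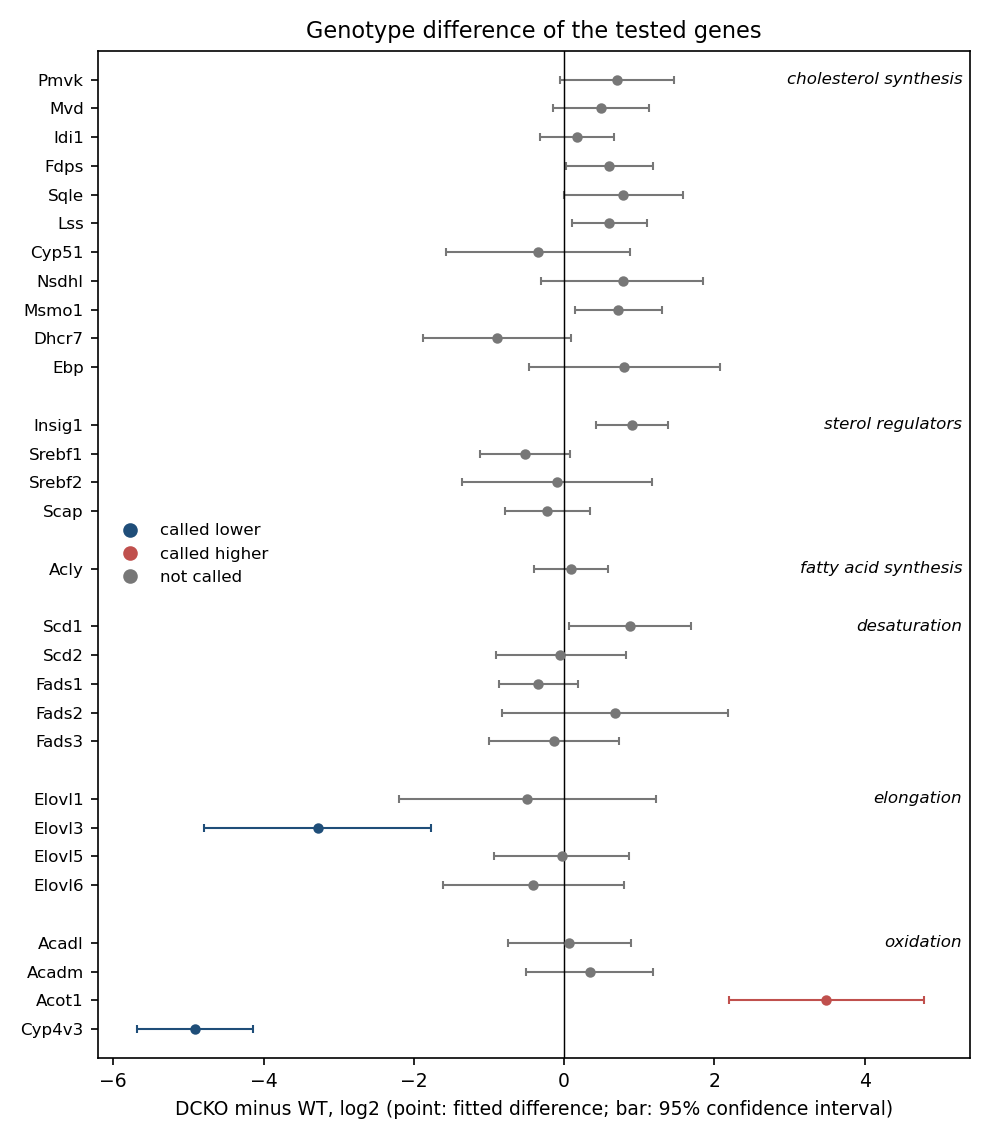
Fitted DCKO minus WT difference (log2) of each of the 29 tested genes with its 95% confidence interval, grouped by role and coloured by call. Cyp4v3 (-4.91), Elovl3 (-3.28) and Acot1 (3.49) stand away from 0, and 9 of the 11 cholesterol synthesis genes lie above 0 by 0.17 to 0.80.

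Over all 29 tested genes, 2 were called lower and 1 higher, against 2.78% and 2.10% of all tested genes. The genotypes did not overlap in 4 genes that were lower in DCKO (Cyp4v3, Elovl3, Srebf1 and Fads1), as in 14.6% of all genes, and in 9 that were higher, as in 14.4%. The median difference was 0.09, and 16 lay above 0 and 13 below. Among 13 genes with several tested probes, all probes ran one way in 9 (above 0 in Acadl, Fdps, Lss and Sqle and below 0 in Elovl1, Elovl6, Fads1, Srebf1 and Srebf2), and the signs differed in Acot1, Fads2, Insig1 and Nsdhl.

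Further genes of the same pathways were taken from lists chosen by function, also with earlier results of these data known. In mitochondrial and peroxisomal oxidation, 2 of 27 tested genes were called higher and 0 lower, against 2.10% and 2.78% of all genes. Eci2, an isomerase for unsaturated fatty acids, read 5.48, 5.47 and 5.68 in WT and 8.44, 8.16 and 7.90 in DCKO (2.63, SE 0.24, adjusted p = 0.00381). Echs1, the mitochondrial enoyl-CoA hydratase, read 9.24, 9.33 and 8.92 in WT and 10.43, 10.77 and 10.48 in DCKO (1.40, SE 0.23, adjusted p = 0.0283), and its dimmer probe gave 1.09 (adjusted p = 0.533). By the brightest probe, both genes were separated by far more than their spread, whereas the dimmer Echs1 probe overlapped between genotypes. Eci2 was detected on every WT array, at detection p-values of 0.0256 to 0.0395. The Echs1 call was lost when any 1 array was left out, whereas that of Eci2 was kept. Of the 27, 17 lay above 0 (50.9% of all genes) and the median was 0.28. At an unadjusted p under 0.05, 7 were higher (10.6% of all genes) and 1 was lower (1066 of 10123).

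No gene of the remaining lists was called under the main processing. The counts at an unadjusted p under 0.05 that follow stand against 1076 of all 10123 genes higher (10.6%) and 1066 lower. Of 3 other tested genes of cholesterol synthesis, 1 was higher at an unadjusted p under 0.05, Ggps1, which makes geranylgeranyl diphosphate (0.61, adjusted p = 0.218). Of 12 genes of sterol uptake, efflux and sensing, 3 were lower and 1 higher at that level, with a median of -0.29. These were Abca1, a cholesterol exporter (-1.13, adjusted p = 0.125), Mylip, a ligase for the LDL receptor (-0.81, adjusted p = 0.122), Apoe, a lipid carrier also abundant in macrophages, whose markers are given above (-1.11, adjusted p = 0.199), and Insig2 (1.75, adjusted p = 0.219). Among 19 further genes of fatty acid synthesis and activation, 2 were higher and 0 lower at that level, with a median of 0.19.

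**Figure D4:**
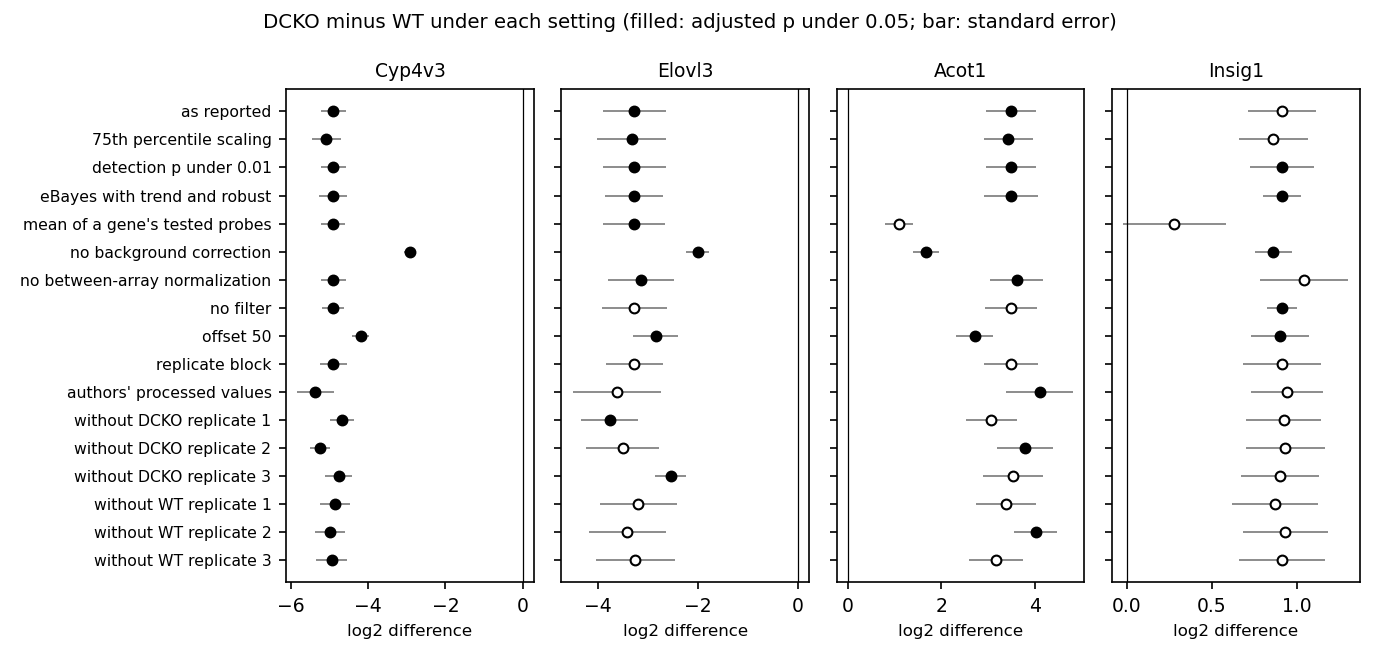
DCKO minus WT difference (log2) of Cyp4v3, Elovl3, Acot1 and Insig1 as reported and under each alternative processing, with bars for the standard error and filled symbols for an adjusted p under 0.05. Cyp4v3 passed under every setting shown, whereas Elovl3, Acot1 and Insig1 passed under some.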

How the data were processed

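The authors deposited, for each of 45281 probes on 6 arrays of 1 chip, the mean bead intensity, neither background-subtracted nor normalized, together with bead numbers, bead standard errors and a detection p-value that sets the probe against negative controls. The export was made in GenomeStudio, of unstated version. They also deposited processed intensities on a linear scale, which their methods describe as cubic spline normalized. Here, log2 intensities were obtained through neqc in limma 3.58.1 under R 4.3.3 (normexp background from detection p-values, offset 16, quantile normalization). A probe was tested where its detection p was below 0.05 on 3 or more arrays (19552 probes). The model was lmFit followed by eBayes, without a block, with Benjamini-Hochberg adjustment over all of these. Probe genes came from the platform annotation, in which 34885 probes carry 1 symbol, 18 several and 10378 none. Symbols, positions and promoter windows came from RefSeq tables of GRCm38.p6.

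A fold written as at least N-fold compares the brighter genotype's mean with that of the dimmer one, in which each array contributes its own value or, if larger, the lowest value detected there. It was used for called probes undetected on some arrays of the dimmer genotype. Such a fold allows for undetected arrays only and is not a confidence limit. Every member gene was named, with per-array values where a probe was called or the genotypes did not overlap. Per-array values of some other probes were added after they were seen. The members and gene lists were chosen with earlier results of these data known. The fits were tested on simulated data. The number of arrays limits the precision, and genes that missed the threshold may still differ. Alternatives were other background, scaling, filter, moderation and probe choices, the processed values, a replicate block and leaving out each array. Same-numbered arrays of the 2 genotypes deviated together with correlations of 0.0105 to 0.0332, so the numbers were not taken to pair them.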

Additional observations from a re-analysis of the deposited data

How the results depend on the processing

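Cyp4v3 was called lower under all 16 alternatives (log2 difference -5.37 to -2.93), and no called gene changed direction. Of the member genes, 2 were called lower as reported and 1 under an adjusted p of 0.01, without a filter on detection, with the replicate block and from the authors' processed values (1 to 2 with an array left out), the one lost being Elovl3. As against 1 called higher, 0 were called under an adjusted p of 0.01, with probes averaged per gene and with the replicate block (0 to 1 with an array left out). The count was 2, with Insig1 beside Acot1, under an adjusted p of 0.1, a detection p under 0.01, eBayes with trend and robust moderation, no background correction and an offset of 50. Without a filter Acot1 was lost (adjusted p = 0.0558) and Insig1 was called (adjusted p = 0.0169). From the processed values Elovl3 differed by -3.63 (adjusted p = 0.0793). Elovl3 and Acot1 were each called under 9 of the 16 alternatives and Insig1 under 5. Among the other pathway genes, 2 were called higher as reported. This became 5 with trend and robust moderation, 4 without background correction, 1 with the replicate block and 1 to 2 with an array left out. The 2 were Eci2 and Stard4 (1.73, adjusted p = 0.0374), without DCKO array 2. Hadh (-0.89, adjusted p = 0.0705 as reported) made the count called lower 1 instead of 0 with trend and robust moderation, without background correction, without a filter and with an offset of 50. The cause of these changes was not tested.

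The replicate block left 205 probes called instead of 895, and 233 to 639 were called with an array left out. The deviations of every array from its genotype's mean correlated best with those of the same number in the other genotype, but only at 0.0105 to 0.0332. Deviations within a genotype cancel, so these correlations are tied to one another. They come from the data and not from the design, and do not settle a pairing. Of 462 gene values under alternatives, 17 changed sign, in 8 genes that were not called. With an array left out in turn, Acadl ranged from -0.26 to 0.26, Cyp51 from -0.85 to 0.00, Elovl1 from -1.29 to 0.10, Elovl5 from -0.32 to 0.23, Fads3 from -0.36 to 0.23, Scd2 from -0.29 to 0.34 and Srebf2 from -0.54 to 0.32. Without between-array normalization Elovl5, Scap, Scd2 and Srebf2 were at 0.17, 0.00, 0.21 and 0.15, and with scaling to the 75th percentile Scd2 was at 0.04. The median of the cholesterol synthesis genes ran from 0.35 without background correction to 0.85 without between-array normalization, which also moved the median of all genes to 0.14, and 0 of them were called under any of these alternatives. The sterol element stood in 1 member window and its core in 3. Probes near background, such as Cyp4v3 in DCKO and Acot1 in WT, have only a bounded fold.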
